A study of Homo sapiens with 4 samples.

Results

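Binding of c-Jun was examined in 8 genomic windows around genes of the NF-kB pathway: NFKB1, NFKB2, RELB and REL, which encode subunits of NF-kB, and NFKBIA, TNIP1, BIRC3 and TNFAIP2, which encode inhibitors, regulators and targets of the pathway. A peak belonged to a window if its centre lay inside it. By this rule the windows, 1300 kb in all, held 24 of the 23721 entries in 4 deposited peak lists. The study used BT549, a widely used human cell line derived from triple-negative breast cancer, starved of serum overnight. In ChIP-seq, DNA bound by a protein is recovered with an antibody and sequenced, and sites with excess reads are called as peaks. Of the 2 c-Jun ChIP-seq libraries compared, 1 came from cells given the inflammatory cytokine TNFalpha and 1 from cells without it. TNFalpha was given for 6 hours according to the sample labels and for 3 hours according to the series text. Peaks of each c-Jun library were called against an IgG library and against an input library, and both of these controls came from TNFalpha-treated cells. Each condition was represented by 1 library of this cell line, so the differences below have no replicate check, and no test was made. Read depth is unknown.

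NF-kB is a family of dimeric transcription factors that inhibitor proteins hold in the cytoplasm of resting cells. TNFalpha signalling through its receptor leads to degradation of IkB-alpha, the inhibitor encoded by NFKBIA, and releases the dimers into the nucleus. There they switch on, among other genes, NFKBIA itself and genes for NF-kB subunits, which closes feedback loops. TNFalpha also activates the JNK pathway, which phosphorylates c-Jun, a subunit of the AP-1 transcription factor, and AP-1 and NF-kB act together at many inflammatory genes.

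Each window is named for 1 gene and may also take in parts of its neighbours. In the order of protein-coding genes in RefSeq, NFKB1 lies between SLC39A8 and MANBA, NFKBIA between PSMA6 and INSM2, NFKB2 between GBF1 and PSD, and TNIP1 between GPX3 and ANXA6. RELB lies between CLPTM1 and CLASRP, REL between PAPOLG and PUS10, BIRC3 between YAP1 and BIRC2, and TNFAIP2 between EXOC3L4 and LOC124903391. Gene positions on hg19, the build of the peak files, were not used here, so peaks are given by window and coordinate, and no peak is assigned to a promoter, exon or intron.

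Promoter sequences of 7 of the 8 genes were found in RefSeq (GRCh38.p14), all but RELB, at 11 start sites in all. Promoters are shown because NF-kB is known to act on several genes of its own pathway through kappa-B elements near their starts. The 250 bases before the start were searched on both strands for the AP-1 motif TGANTCA, the related motif TGACGTCA, a loose kappa-B pattern (3 G, any 5 bases, 2 C) and the stricter NF-kB consensus. Matches to the consensus are also matches to the loose pattern. Sequences follow for 1 gene whose window held a group of peaks found only with TNFalpha (NFKBIA), 1 with a single such peak called against both controls (TNIP1), 1 with shared peaks (NFKB1) and 1 with no peak (BIRC3). Capitals mark NF-kB consensus matches. For TNIP1 and NFKB1 the start site farthest upstream is shown. The coordinates are those of GRCh38.p14. They were not converted to hg19, so they were not set against the peak positions.
NFKBIA, chr14:35404750-35404999, minus strand: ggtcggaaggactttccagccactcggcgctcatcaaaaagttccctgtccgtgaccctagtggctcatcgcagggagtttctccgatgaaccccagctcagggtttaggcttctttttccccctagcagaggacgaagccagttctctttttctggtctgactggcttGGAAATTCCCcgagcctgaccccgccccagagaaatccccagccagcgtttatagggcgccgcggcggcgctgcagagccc
TNIP1, chr5:151081035-151081284, minus strand: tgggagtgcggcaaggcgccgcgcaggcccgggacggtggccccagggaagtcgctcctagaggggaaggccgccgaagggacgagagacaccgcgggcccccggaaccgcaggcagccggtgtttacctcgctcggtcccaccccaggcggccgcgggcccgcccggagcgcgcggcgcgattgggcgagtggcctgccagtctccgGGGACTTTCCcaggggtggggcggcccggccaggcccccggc
NFKB1, chr4:102501109-102501358, plus strand: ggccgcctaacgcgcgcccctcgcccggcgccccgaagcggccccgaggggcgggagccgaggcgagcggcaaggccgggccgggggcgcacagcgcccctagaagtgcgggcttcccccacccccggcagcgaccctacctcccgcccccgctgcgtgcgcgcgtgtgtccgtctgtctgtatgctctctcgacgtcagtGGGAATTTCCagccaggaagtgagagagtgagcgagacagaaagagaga
BIRC3, chr11:102317234-102317483, plus strand: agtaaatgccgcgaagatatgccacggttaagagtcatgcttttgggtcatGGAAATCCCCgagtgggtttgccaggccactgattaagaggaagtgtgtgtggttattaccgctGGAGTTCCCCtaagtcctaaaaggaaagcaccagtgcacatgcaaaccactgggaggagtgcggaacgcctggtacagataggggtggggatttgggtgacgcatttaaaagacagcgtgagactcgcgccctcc

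The NF-kB consensus was present before 7 of the 11 start sites, in 6 of the 7 genes, with TNFAIP2 the exception. It was present in 9.96% of all 35116 promoters of that table. The NFKBIA match GGAAATTCCC lay 81 to 72 bases before the start, and the same letters occurred in REL 46 to 37 bases before the start. TNIP1 had GGGACTTTCC at 42 to 33 bases and NFKB1 had GGGAATTTCC at 49 to 40 bases. The other start of each of these genes, not shown, had 0 matches. For NFKB2 the consensus began at 0 positions before the start farthest upstream, 3 before the middle start and 2 before the last. In BIRC3 there were 2 matches, GGAAATCCCC at 199 to 190 bases and GGAGTTCCCC at 135 to 126 bases. The loose pattern was found at 11 of 11 starts, against 54.4% of all promoters. TGANTCA was found at 0 of the 11 starts, against 6.57% of all promoters, and TGACGTCA at 0 of 11, against 1.65%. These letters say nothing about sequence elsewhere in the windows. The peaks were not searched as such, and whether a searched promoter lies under a peak was not determined.

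Across the windows, c-Jun peaks were more numerous in the library with TNFalpha. Against IgG, 10 peaks were called with TNFalpha, of 4439 in the whole list, and 2 without it, of 3323. Against input, 8 were called with TNFalpha, of 8040, and 4 without it, of 7919. A peak called against both controls, termed a both-control peak, had the same start and end in both lists of its library, in the windows and among all 3086 such peaks without TNFalpha and 4159 with it. The windows held 8 both-control peaks with TNFalpha and 2 without it. Over 1.3 Mb these are 6.15 and 1.54 peaks per Mb. On the 7 chromosomes that carry the windows, the densities were 1.28 per Mb with TNFalpha and 0.917 per Mb without it. These cover each chromosome up to its last peak, whether near a gene or not, while the windows were set around genes. The windows were also chosen with earlier results of these data known, and 4 of the 8 peaks with TNFalpha lay in the NFKBIA window. The difference in density was not tested.

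In the windows, 5 of these 8 peaks with TNFalpha overlapped no peak in either list of the other library, and 3 were shared. Among all 4159 both-control peaks with TNFalpha, 35.9% were found only in that library. The share in the windows was 62.5%, with a 95% Wilson interval of 30.6 to 86.3% that contains the background share. The interval treats the 8 peaks as independent, although 4 of them lay within 31.0 kb in the NFKBIA window. Of the 2 both-control peaks without TNFalpha, 0 were found only there, against 20.1% of all such peaks, and the interval for so few peaks reaches 65.8%. The 5 peaks lay in 3 windows, 3 of them in the NFKBIA window, 1 in the NFKB2 window and 1 in the TNIP1 window. Without the NFKBIA window, 2 of 4 both-control peaks with TNFalpha were found only with TNFalpha. The windows of RELB, REL, BIRC3 and TNFAIP2 held 0 peaks in all 4 lists.

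**Figure D1:**
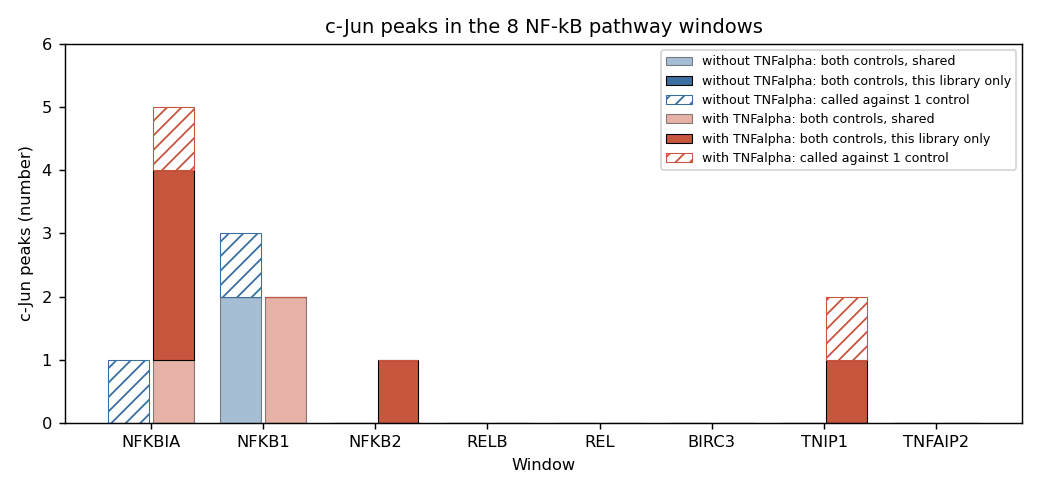
Number of c-Jun peaks in each of the 8 windows, without TNFalpha (blue, left bars) and with TNFalpha (red, right bars). Pale bars are both-control peaks shared with the other library, solid bars are both-control peaks found only in that library, and hatched bars are peaks called against 1 control; the NFKBIA window had 5 peaks with TNFalpha and 1 without it, and 4 windows had none.

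The NFKBIA window, chr14:35780000-35980000, held the most peaks. With TNFalpha, 5 peaks were called against IgG and 4 of these also against input. Without TNFalpha, 0 peaks were called against IgG and 1 against input. The peaks with TNFalpha formed a pair and a group of 3, separated by 27.6 kb, and spanned 31.0 kb in all.

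The pair held the highest scoring peak of the window, at chr14:35843408-35843938. Its score with TNFalpha was 168.1 against IgG, rank 615 of 4439, and 294.3 against input, rank 658 of 8040. Each score is the authors' own and is read only within its list, where the lowest score is about 50. The only NFKBIA peak without TNFalpha lay inside it, at chr14:35843624-35843890, with a score of 64.8 against input and rank 4892 of 7919. It was not called against IgG. This site therefore counts as shared through the input-controlled list alone. The other peak of the pair, at chr14:35844726-35845292, began 787 bases further on. With TNFalpha it had scores of 92.5 against IgG and 92.8 against input, and it lay 836 bp from the peak without TNFalpha just described. It was the widest NFKBIA peak, at 567 bp.

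The group of 3 was seen only in the library with TNFalpha. Its strongest peak, chr14:35872902-35873255, scored 81.5 against IgG and 83.5 against input. The next, chr14:35873858-35874145, was called against IgG alone, with a score of 55.4. Only 5 bases separated it from the last, chr14:35874151-35874453, which scored 53.5 against IgG, rank 4152 of 4439, and 58.7 against input, rank 6631 of 8040. The last 2 were thus among the weakest entries of the IgG-controlled list. Measured from these 3 peaks, the closest peak without TNFalpha was 29.0 to 30.3 kb distant. Of all 1493 peaks found only with TNFalpha, 44.9% lay within 30 kb of a peak without TNFalpha and 9.38% within 1 kb.

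Each of the 4 both-control NFKBIA peaks had 3 others within 50 kb. Among all both-control peaks with TNFalpha, 7.38% had at least 3 others within that distance. Each of the 3 NFKBIA peaks found only with TNFalpha had the other 2 of that class within 50 kb, and 8.37% of the 1493 peaks of that class had at least 2. The grouping was noticed in these data and was not tested.

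**Figure D2:**
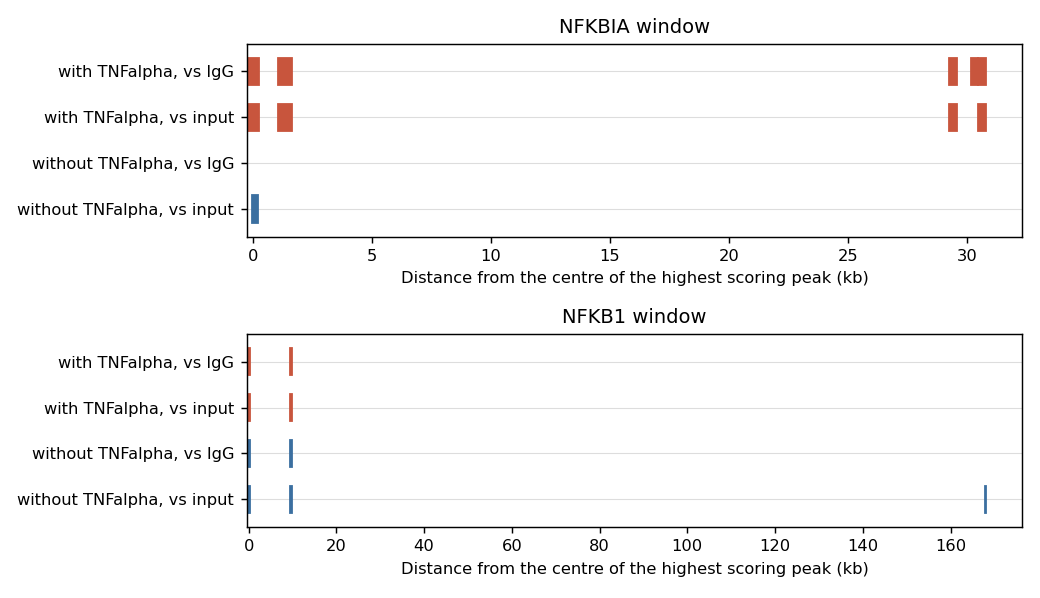
Positions of c-Jun peaks in the NFKBIA and NFKB1 windows in each of the 4 peak lists, as distance in kb from the centre of the window's highest scoring peak with TNFalpha. In NFKBIA the group about 30 kb from the reference peak is present only with TNFalpha, where 2 peaks 5 bases apart appear joined in the IgG lane; in NFKB1 both peaks near the reference are present in all 4 lists.

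The NFKB1 window, chr4:103350000-103600000, differed from that of NFKBIA in that its 2 both-control peaks were present in both libraries. NFKB1 encodes a precursor of a DNA-binding NF-kB subunit, and the unprocessed precursor also acts as an inhibitor. The stronger site lay at chr4:103350486-103351303 with TNFalpha and at chr4:103350655-103351124 without it. With TNFalpha it scored 338.3 against IgG, rank 90 of 4439, and 399.3 against input, rank 306 of 8040. Without TNFalpha it scored 139.8 against IgG, rank 518 of 3323, and 177.3 against input, rank 1073 of 7919. It was the highest scoring member in each of the 4 lists. Its centre lay 0.89 kb inside the window's edge, at the low-coordinate end, where SLC39A8 precedes NFKB1 in the RefSeq gene order.

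The other NFKB1 site lay at chr4:103360405-103360787 with TNFalpha and at chr4:103360378-103360676 without it, with 9.10 kb between the sites with TNFalpha. It scored 101.8 against IgG and 185.7 against input with TNFalpha, and 64.0 and 69.6 without TNFalpha. Its ranks were 1706 of 4439 and 1600 of 8040 with TNFalpha, and 2325 of 3323 and 4453 of 7919 without it. The lists differ in length, so these ranks cannot be compared between the libraries. Another NFKB1 peak, chr4:103518696-103518871, was called only without TNFalpha and only against input. Its score was 51.8, rank 7284 of 7919, its width was 176 bp, and the closest peak with TNFalpha lay 158 kb from it. This was the only member found without TNFalpha and not with it.

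NFKB2 encodes the precursor of the subunit used by the non-canonical NF-kB pathway. Its window, chr10:104100000-104220000, held 1 peak, chr10:104155007-104155431, called with TNFalpha against both controls and absent from both lists without TNFalpha. This peak, 425 bp wide, scored 117.4 against IgG, rank 1333 of 4439, and 96.8 against input, rank 3909 of 8040. There was no other both-control peak with TNFalpha within 50 kb, which held for 51.2% of all both-control peaks with TNFalpha. The NFKB2 peak stood 835 kb from any peak without TNFalpha. Of the 1493 peaks found only with TNFalpha, 93.7% lay within 500 kb of a peak without it, so the NFKB2 peak was among the more isolated ones by this measure.

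TNIP1 encodes ABIN-1, a ubiquitin-binding protein that restrains NF-kB signalling together with A20. Its window, chr5:150380000-150550000, held 2 peaks with TNFalpha and 0 without it. The stronger, chr5:150473053-150473468, scored 138.6 against IgG, rank 966 of 4439, and 236.7 against input, rank 1017 of 8040. It was the highest scoring member found only with TNFalpha in both lists. The other, chr5:150460587-150460954, was called against IgG alone with a score of 60.4, rank 3559 of 4439, and lay 12.1 kb from the stronger peak. The nearest peaks without TNFalpha were 591 kb and 603 kb away. As at NFKB2, 0 other both-control peaks lay within 50 kb of the stronger TNIP1 peak. The same held for 51.2% of all both-control peaks with TNFalpha.

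The scores of the 8 both-control peaks with TNFalpha ran from 53.5 to 338.3 against IgG. The median of all both-control peaks with TNFalpha was 89.8, and the medians of those found only with TNFalpha and of those shared were 74.9 and 102.1. In the windows, the 3 shared peaks scored 338.3, 168.1 and 101.8, and the 5 found only with TNFalpha scored 138.6, 117.4, 92.5, 81.5 and 53.5. The 2 sets overlapped in score, since the TNIP1 and NFKB2 peaks scored above the weaker NFKB1 peak. Against input the order of the 8 peaks was the same except that this NFKB1 peak stood in place 4 and the NFKB2 peak in place 5.

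**Figure D3:**
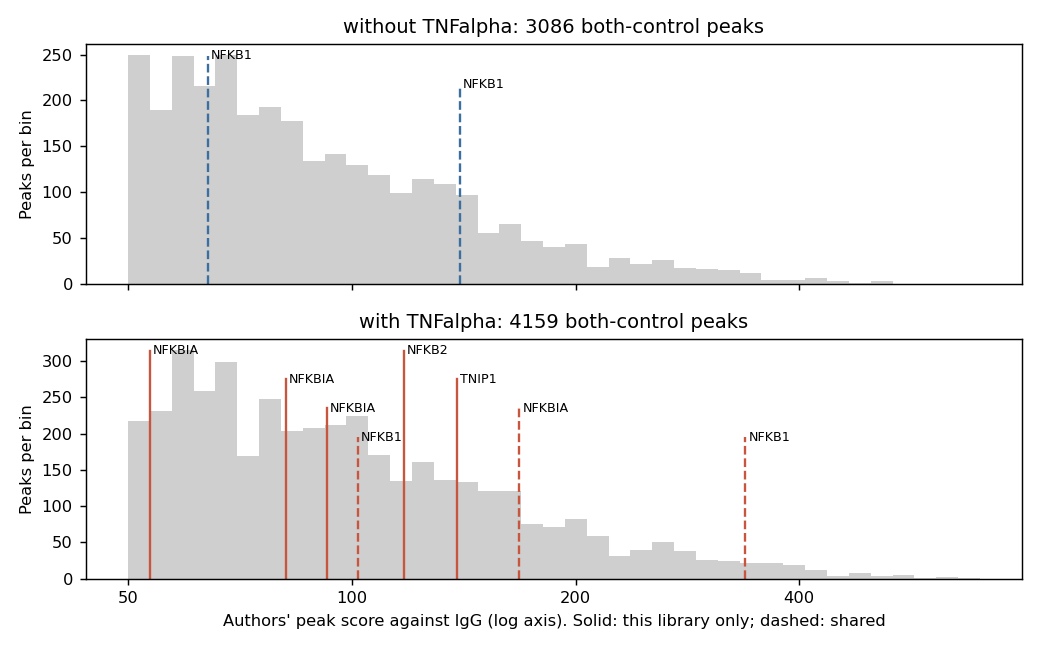
Distribution of the authors' peak scores against IgG (log axis) for all both-control peaks without TNFalpha (upper panel, 3086 peaks) and with TNFalpha (lower panel, 4159 peaks), in grey, with vertical lines at the member peaks. Solid lines are peaks found only in that library and dashed lines are shared peaks; line heights only separate the labels. With TNFalpha the members spread from 53.5 to 338.3, and the 2 highest scores belong to shared peaks.

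All 3 shared sites were wider with TNFalpha. The NFKBIA site was 531 bp wide with TNFalpha and 267 bp without it, a ratio of 1.99. The stronger NFKB1 site was 818 and 470 bp wide, a ratio of 1.74, and the weaker 383 and 299 bp, a ratio of 1.28. Peaks were wider with TNFalpha across the genome as well, with a both-control median of 434 bp, against 396.5 bp without it. Among the 2666 shared both-control peaks with TNFalpha, 70.3% were wider than the peak they overlapped. The median ratio was 1.16, with an interquartile range of 0.964 to 1.45. The overlapped peak could be called against input alone, as at NFKBIA, which tilts these ratios upward. Without TNFalpha, the median width was 288 bp in the input-controlled list and 392 bp in the IgG-controlled list. The NFKBIA peak and the stronger NFKB1 peak with TNFalpha contained the whole of the peak without it, while the weaker NFKB1 peaks overlapped by 272 bp. The read number behind these widths is unknown, and no difference in width was tested.

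**Figure D4:**
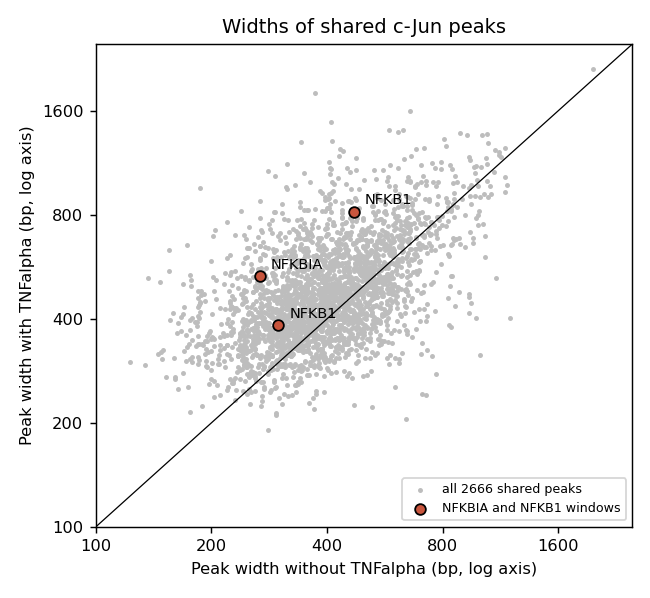
Width of each shared both-control peak with TNFalpha (vertical axis, bp, log scale) against the width of the peak it overlaps without TNFalpha (horizontal axis, bp, log scale), with all 2666 pairs in grey and the 3 pairs of the NFKBIA and NFKB1 windows in red. The diagonal marks equal width; the 3 red points lie above it, with ratios of 1.28 to 1.99.

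The windows of RELB, REL, BIRC3 and TNFAIP2 had no c-Jun peak in either library. RELB and REL encode NF-kB subunits with transactivation domains, BIRC3 encodes cIAP2, a ubiquitin ligase of the TNF receptor complex, and TNFAIP2 is a gene known for its induction by TNFalpha. The windows ranged from 110 kb for RELB (chr19:45450000-45560000) to 180 kb for BIRC3 (chr11:102100000-102280000), with 150 kb for REL (chr2:61050000-61200000) and 120 kb for TNFAIP2 (chr14:103540000-103660000). At an unknown depth, a missing peak does not show that c-Jun was absent.

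Peaks outside these 4 windows lay at different distances. At BIRC3, the nearest with TNFalpha was a both-control peak centred 50.7 kb before the window, chr11:102049096-102049441, with scores of 97.3 against IgG and 177.0 against input. This flanking peak was found only with TNFalpha, at 699 kb from any peak of the other library. On the other side, 67.1 kb beyond the window, chr11:102346959-102347154 was called with TNFalpha against input alone, with a score of 65.9. TNFAIP2 had 1 both-control peak found only without TNFalpha 62.6 kb before its window, chr14:103477268-103477528, with a score of 58.0 against IgG. It also had 1 found only with TNFalpha 63.6 kb beyond it, chr14:103723469-103723779, with a score of 62.5. The 4 flanking peaks named here were the only ones within 100 kb outside any of the 8 windows. The nearest peaks to the RELB window were 193 kb away with TNFalpha and 205 kb away without it. Around REL the nearest were 1605 kb away with TNFalpha and 1396 kb away without it, the farthest of the 8 windows in both libraries.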

How the data were processed

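The series holds 4 libraries, 2 c-Jun ChIP libraries plus an IgG and an input control. Per the labels' protocols, chromatin was fixed for 10 minutes in 1% formaldehyde. Per the submitters' processing notes, CASAVA 1.8 and Bowtie 0.12.9 were used and the build was hg19. The deposited files were 4 peak lists, each with a score per peak made by the authors' peak caller; the peak names begin with MACS, with its version, threshold and treatment of duplicates not given in the sources used here. Depth is unknown, and a deeper library can yield more and wider peaks.

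Starts were raised by 1 to give 1-based positions. A both-control peak is an IgG-controlled peak that overlapped an input-controlled peak of its library by at least 1 bp. It was shared if any peak of the other library covered at least 1 of its bases. Shares carry 95% Wilson intervals, which cover counting error only and treat peaks as independent. All peaks in the windows are named. The windows and gene lists were chosen with earlier results of these data known. The NF-kB consensus and the distance and width summaries were added after the data were seen. Promoter letters come from RefSeq. Python 3.11.15, pandas 2.3.3, numpy 2.4.6, scipy 1.17.1 and matplotlib 3.10.9 were used. The overlap code was tested on simulated data and against bedtools 2.31.1, where 0 of 24 counts differed.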

Additional observations from a re-analysis of the deposited data

How the results depend on the processing

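No paired analysis was possible because there was only 1 c-Jun library per condition, which also precluded leaving a library out. The main values were 5 peaks found only with TNFalpha (62.5% of 8) and 0 found only without it. With the IgG-controlled lists alone, 8 of 10 peaks were found only with TNFalpha, against 49.7% of that whole list. With the input-controlled lists alone, 5 of 8 were, against 49.1% of all. In that setting 1 of 4 peaks without TNFalpha was found only there, and the share over that whole list was not computed. Restricted to the upper 50% of IgG-controlled peaks by score, 3 of 6 were, against 25.2% of all. Among the highest scoring 10%, 0 of 1 were (0%), the single peak left being at NFKB1, against 53 of 443 among all such peaks. With windows cut to their middle 50%, both shared NFKB1 sites fell outside. Of the 6 remaining peaks, the same 5 as in the main count were found only with TNFalpha, against 35.9% of all. Added after seeing the data, omission of the NFKBIA window left 2 of 4 peaks, against 35.9% of all. Counting peaks within 2 kb as shared, also added then, left 4 of 8, against 31.5% of all. Reciprocal overlap gave 5 of 8 (42.8% of all) and joining within 500 bp 5 of 8 (33.7%). Both-control peaks of the other library alone gave 6 of 8 (50.5%). Equal numbers of the highest scoring IgG-controlled peaks, compared only with each other, gave 5 of 7 (42.7%). These were not the main 5 peaks. The NFKBIA site shared through the input-controlled list alone was counted, and the weakest both-control NFKBIA peak dropped out. Windows widened by 50 kb gave 5 of 8. No both-control peak lay within 50 kb outside any window, so this setting could not change the count. Of 88 counts per window, 82 stayed within 1.5 times the main count or at 0 and 6 did not. All 6 were in the NFKBIA, NFKB2 and TNIP1 windows. In the other windows every count was 0, as in the main setting. RELB, REL, BIRC3 and TNFAIP2 held no peak in any list, so their counts of 0 do not measure stability. Motifs in the peaks, positions relative to genes and the other pathway genes were not run, as no hg19 genome or annotation was used. Unknown depth limits every statement that a peak is absent.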
